A study of Gallus gallus with 20 samples.

Results

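Endotoxin-stimulated HD11 cells at 4 hours post stimulation (hps) were set against vehicle-treated HD11 cells of the other harvest times. These cells come from the chicken macrophage lineage and grow without end because a retrovirus (MC29) transformed them, so the line stands for a transformed macrophage and not for a primary cell. The 9 arrays compared, of 20 in the series, were chosen by their labels. They are 3 arrays of cells given 1 μg/ml endotoxin from Salmonella typhimurium-798 and harvested at 4 hps, and 6 arrays of cells given vehicle (PBS, 0 μg/ml endotoxin), 2 each at 1, 2 and 8 hps. All groups were the same line, each array held RNA pooled from 3 flasks, and the replications were set up on different days. Replication 3 had an endotoxin array but no vehicle array. The vehicle time means were weighted equally, the 2 vehicle arrays of 4 hps were left out, and the contrast therefore holds 3 differences of time as well as the difference of treatment.

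According to the study, the endotoxin used is a butanol extract that also holds protein. Its lipopolysaccharide, a part of the Gram-negative outer membrane, is sensed in macrophages by Toll-like receptor 4 with MD-2. In mammals this leads through the adaptors MyD88 and TRIF to the kinases that free NF-kB from its inhibitors and to the MAP kinases. NF-kB then switches on chemokines and cytokines, together with its own inhibitors, which later end the signal. Heat shock genes answer to unfolded protein through heat shock factors, and genes of sterol synthesis to the cholesterol content of the cell.

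Expression was measured on the Affymetrix chicken array as RMA values, which are on the log2 scale, so that a difference of 1 is a 2-fold change. A probe set was called at a q value under 0.05 from limma with a term for replication, fitted to the 18 arrays that remain without vehicle 4 hps. Differences below are endotoxin 4 hps minus the mean of the 3 vehicle times, with the standard error (SE) of the fit. The fit adjusts for replication, and through this term the endotoxin arrays of 1, 2 and 8 hps enter these differences with small weights. The weight was 0.0417 for each such array of replications 1 and 2 and -0.0833 for each of replication 3. A difference can therefore depart from that of the plain means. Of 38439 probe sets, 519 were called (1.35%), of which 264 were higher (0.687%) and 255 lower (0.663%). The median difference was 0.386 among the higher probe sets and -0.371 among the lower ones. The larger changes were mostly rises, with 16 probe sets higher by more than 1 on the log2 scale and 1 lower by as much. On 197 of the 264 and 212 of the 255 called probe sets the endotoxin arrays did not overlap the 6 vehicle arrays, against 3.04% and 3.31% of all probe sets that lay above or below them. The calls rested on few arrays: 42 of the 105 called genes named here stayed called when each of the 9 arrays was left out in turn. Of the 105, 61 had further probe sets, and for 37 of these none of the further probe sets was called the same way.

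The cells had the markers of macrophages. Of 17 macrophage marker genes, 15 had a mean level above 7, among them SPI1 (PU.1, the transcription factor that directs macrophage fate, 12.43 in endotoxin-treated cells), CSF1R (the receptor for macrophage colony stimulating factor, 10.57) and PTPRC (CD45, 10.97). Their summed level, as log2 of the sum, ran from 15.88 to 15.91 in endotoxin arrays and from 15.85 to 15.91 in vehicle arrays, and TLR2 was the 1 marker of 17 called, lower. No B cell marker of 11 exceeded 7. Of the T cell markers 2 of 12 did, CD28 (10.33 in endotoxin-treated cells) and CD247 (7.79), while CD3E and CD4, which define T cells, were at 3.70 and 2.90. The same mark was passed by 3 of 10 erythroid and thrombocyte markers and 4 of 17 fibroblast and endothelial markers. Of the fibroblast and endothelial markers 1 of 17 was called, PECAM1, which leukocytes also express. The summed level of those 17 ran from 11.97 to 12.02 in endotoxin arrays, below the 12.13 to 12.35 of vehicle arrays, and its part in the results was not tested. On the first principal component of the series (26.6% of the variance) the endotoxin 4 hps arrays lay at -18.8, -0.681 and 12.1, against -21.9 to 0.0354 for the 6 vehicle arrays. Neither the first component nor the marker sum was used in the test.

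Among the secreted signals, 4 of 11 chemokine genes rose in endotoxin-stimulated cells at 4 hps and none was called lower. Of all 13782 genes, 0.936% were called higher and 1.02% lower by their brightest probe set. Every group count below is to be read beside these shares. CCL4, a chemokine gene by the array's annotation (its accession is now LOC395551) and the gene with the largest rise here, was at 8.56, 8.61 and 8.52 on the endotoxin arrays. The vehicle arrays had 6.65 and 6.52 at 1 hps, 6.87 and 6.44 at 2 hps, and 6.88 and 6.58 at 8 hps. The groups were well apart, and the difference was 2.15 ± 0.223 (SE), or 4.43-fold (q = 0.00023, limma), while its other 2 probe sets gave 0.321 and 1.53. IL8 (current symbol IL8L1), whose product draws heterophils to a site of infection, had 9.07, 9.01 and 8.91 in endotoxin-stimulated cells, against 8.29 and 7.84 at 1 hps, 7.91 and 7.49 at 2 hps and 8.49 and 8.16 at 8 hps in vehicle-treated cells. Its difference was 1.23 ± 0.199 (q = 0.00661), and its second, brighter probe set gave 1.08. K123, a chicken chemokine gene, averaged 6.85 ± 0.098 in endotoxin-stimulated cells (SD, n = 3) and 5.71 ± 0.374 in vehicle-treated cells (SD, n = 6). CCL17, a chemokine for T cells that carry CCR4, lay near the low end of the array's range and still rose by 1.09 ± 0.1 (q = 7.53e-05), with 4.89 to 5.01 in endotoxin-stimulated and 3.68 to 4.26 in vehicle-treated cells. None of 13 chemokine receptors was called by limma, and 5 had an unadjusted p under 0.05, against 2133 of all 13782 genes (15.5%). IL8 was not called without the endotoxin array of replication 2 (q = 0.0534).

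**Figure D1:**
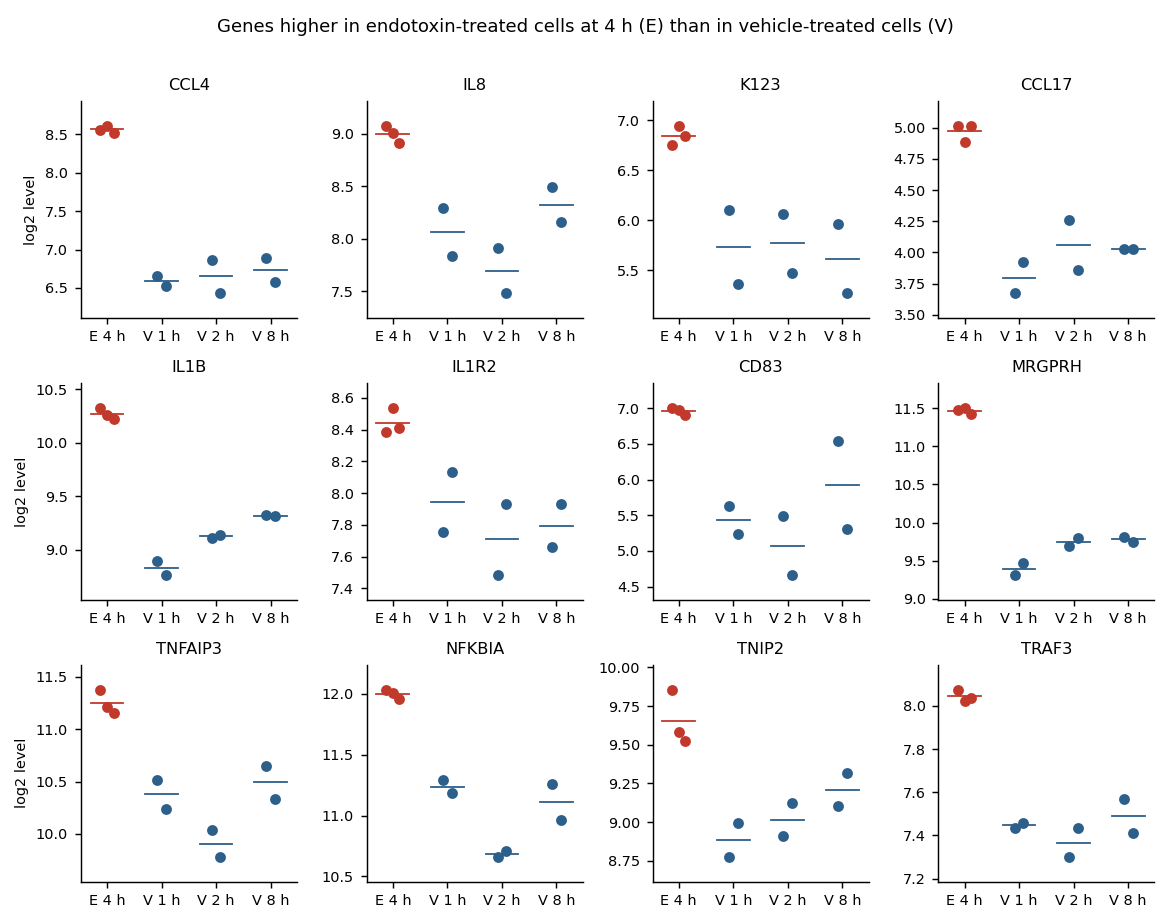
RMA log2 levels of 12 genes called higher, 1 panel a gene, with a point for each array and a line at each group's mean: endotoxin 4 hps (E 4 h, red, 3 arrays), then vehicle at 1, 2 and 8 hps (V, blue, 2 arrays each). In every panel the 3 endotoxin arrays lie above all 6 vehicle arrays, as for CCL4 at 8.52 to 8.61 against 6.44 to 6.88.

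Of 56 interleukin, interferon and receptor genes, 3 rose. IL1B, the fever-inducing cytokine of activated macrophages, was at 10.33, 10.26 and 10.22 with endotoxin, against 8.89 and 8.76, 9.11 and 9.14, and 9.32 and 9.31 with vehicle at 1, 2 and 8 hps. The vehicle pairs were close to each other, and all 6 lay below the endotoxin arrays (difference 1.24 ± 0.095, q = 1.72e-05). IL1R2, the decoy receptor that binds interleukin-1 without signalling, rose beside its ligand by 0.659 ± 0.073 (q = 0.000355), with 8.38 to 8.54 in endotoxin-stimulated and 7.49 to 8.13 in vehicle-treated cells. At 1 and 2 hps the endotoxin-minus-vehicle difference of IL1R2 at the same time was 0.053 and 0.146, against 0.661 at 8 hps, while for IL1B it was 1.10, 0.955 and 1.37. CSF3, the growth factor of granulocytes (LOC396216 in the array's annotation), was dim at 4.03 to 4.22, against 3.49 to 4.01 with vehicle, and its call (0.484 ± 0.102, q = 0.03) was lost in 7 of 9 omissions of an array. IL6, IL10 and IFNG were not called, with differences of 0.036, -0.09 and -0.07, and their levels lay between 3.28 and 5.73 on all 9 arrays. IL1RL2, a receptor of the same family as IL1R2, was at 8.43 to 8.58 with endotoxin and 8.29 to 8.89 with vehicle. Set against vehicle at 4 hps, outside the comparison, IL1RL2 was called higher (0.546, q = 0.0237, limma). The vehicle arrays of 4 hps were themselves low for IL1RL2, at 7.688 and 8.345. Their level differed by -0.651 from the other vehicle times (q = 0.013, limma), and its part in that call was not tested. None of 48 genes of the interferon response was called by limma, and 12 had an unadjusted p under 0.05, a level that 15.5% of all genes passed.

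Called genes of the NF-kB system were mainly its inhibitors and adaptors. Of 36 genes for NF-kB subunits, inhibitors and adaptors 5 rose and 1 fell, and the median difference over the 36 was 0.114, against 0.00214 over all genes. NFKBIA, the inhibitor that holds NF-kB in the cytoplasm, was at 12.03, 12.01 and 11.96 with endotoxin, against 11.29 and 11.19, 10.66 and 10.71, and 11.26 and 10.96 with vehicle at 1, 2 and 8 hps (1.03 ± 0.08, q = 1.72e-05). TNFAIP3 (A20), an ubiquitin-editing enzyme that shuts off the signal, was at 11.38, 11.21 and 11.15, against 10.52 and 10.24, 10.03 and 9.78, and 10.65 and 10.34. Its difference was 1.07 ± 0.059 (q = 5.48e-07). For both genes the vehicle level was lowest at 2 hps, and the F test over the vehicle times called both (q = 0.0236 for NFKBIA and 0.00284 for TNFAIP3), so the size of the rise depended on the vehicle time, from 0.800 to 1.36 for NFKBIA and from 0.833 to 1.42 for TNFAIP3. TNIP2, which binds A20, rose by 0.676 ± 0.079, and the adaptor TRAF3 by 0.662 ± 0.106, with a second TRAF3 probe set at 0.613. NFKBIE, a further inhibitor of the same kind (LOC421438), rose by 0.561 ± 0.095, though its second probe set gave 0.017. TRAF5, an adaptor of tumor necrosis factor receptors, was the 1 member that fell, by 0.371 ± 0.07 on the log2 scale, and its second probe set gave -0.023. The subunit genes NFKB1 (0.17), NFKB2 (0.131) and REL (0.16) were not called. Without the endotoxin array of replication 2, 4 of the 5 rises remained called, and NFKBIE was not (q = 0.0702), nor was the fall of TRAF5.

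Of 27 genes for Toll-like and NOD-like receptors and their adaptors 1 rose and 2 fell. IRAK2, a kinase of the MyD88 signalling complex, had 10.13, 10.03 and 9.98 with endotoxin and 9.62 to 9.88 with vehicle (0.394 ± 0.072, q = 0.015), a call lost without the endotoxin array of replication 2 (q = 0.0599). TLR2, the receptor for bacterial lipoproteins, had 7.59, 7.12 and 7.04 with endotoxin. With vehicle it had 8.04 and 7.81 at 1 hps, 8.13 and 7.65 at 2 hps, and 8.48 and 8.34 at 8 hps. It fell by 0.704 ± 0.097 on the log2 scale (q = 0.00201), with the groups close but not overlapping, while its second, dimmer probe set gave 0.102 and was not called. CD180, a relative of Toll-like receptor 4 that pairs with MD-1, fell by 0.612 ± 0.124 (q = 0.0242), and its call was lost in 6 of 9 omissions. TLR4 itself (0.081), MYD88 (0.041) and TLR15 (0.094) were not called, nor was NLRC5 (RCJMB04_18i2 in the array's annotation, -0.222), an intracellular NOD-like receptor. NLRC5 was called higher against vehicle at 4 hps, the study's reference and outside the comparison (0.468, q = 0.0281, limma). For NLRC5 that vehicle level differed by -0.691 from the other vehicle times (q = 0.0085, limma). FAS, the death receptor, was the 1 called gene of 26 in the tumor necrosis factor superfamily, at 7.73, 7.56 and 7.48 with endotoxin and 8.12 to 8.60 with vehicle (-0.668 ± 0.061, q = 7.53e-05), and its second probe set gave -0.214. Of the 26, 22 had a difference below 0, most of them small and not called, against 6804 of all 13782 genes below 0.

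Between receptor and nucleus, single steps of the cascades changed. PIK3R5, the regulatory subunit of phosphoinositide 3-kinase gamma, was at 10.13, 10.12 and 10.18 with endotoxin and 8.92 to 9.41 with vehicle, and rose by 0.882 ± 0.076 (q = 4.44e-05; second probe set 0.81). PIK3AP1 (BCAP), an adaptor for the same kinases, rose by 0.303 ± 0.059, and these 2 were the called members of 38. DUSP10, a phosphatase of p38 and JNK, was the 1 of 43 MAP kinase cascade genes called, higher by 0.309 ± 0.058, but its second probe set gave -0.023 and its call was lost without 1 or the other of 2 arrays. MAPK8 (JNK1), which the study names, was not called (-0.013). The study's reference was vehicle at 4 hps. Against it MAPK8 differed by 0.245 here on the probe set given and was not called (q = 0.0787, limma). The values of its 2 further probe sets against that reference are not given here. Among 26 AP-1 and immediate early genes, BTG2, an antiproliferative cofactor, was at 9.21, 9.31 and 9.26 with endotoxin and 8.25 to 8.48 with vehicle (0.958 ± 0.088, q = 7.53e-05), with -0.039 and 0.814 for its other 2 probe sets. KLF2, a factor that keeps myeloid cells quiescent, fell by 0.434 ± 0.1 (q = 0.0436), a call that 8 of 9 omissions ended. JUN was at 10.34, 10.05 and 10.04 with endotoxin, inside the vehicle range of 9.51 to 10.44, and was not called (0.256 ± 0.093, q = 0.189). Against vehicle at 2 hps alone JUN was called higher (0.576), and against 8 hps alone its difference was -0.101. With vehicle 4 hps as reference, outside the comparison, JUN was called higher (0.487, q = 0.0185, limma). Every called gene of this paragraph had the same direction against vehicle at 1, 2 and 8 hps, while JUN and MAPK8 did not.

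On the cell surface, CD83, a marker of activated antigen-presenting cells, was at 7.00, 6.97 and 6.90 with endotoxin, against 5.63 and 5.24 at 1 hps, 5.48 and 4.67 at 2 hps and 6.54 and 5.31 at 8 hps with vehicle. The endotoxin arrays were alike and the vehicle arrays scattered, yet the groups did not overlap (1.70 ± 0.2, 3.24-fold, q = 0.000573). CD274 (PD-L1), which restrains T cells, rose by 0.354 ± 0.08 (q = 0.0413), and its second probe set gave 0.596. Of 25 costimulation and antigen presentation genes these 2 rose and none was called lower, and CD40 (0.179), CD80 (0.073) and CD86 (0.135) were not called. Without the endotoxin array of replication 2 the count was 1, with CD83 kept.

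The G-protein coupled receptors and their regulators changed in both directions. Of 149, 4 were called higher (2.68%) and 5 lower (3.36%), against 0.936% and 1.02% of all genes. MRGPRH, an orphan receptor of the Mas-related family, had the lowest q of all: 11.47, 11.51 and 11.43 with endotoxin, against 9.31 and 9.47, 9.70 and 9.80, and 9.81 and 9.74 with vehicle at 1, 2 and 8 hps. The difference was 1.83 ± 0.089 (3.56-fold, q = 2e-07). PROK2, the ligand prokineticin, rose by 0.58 ± 0.073 and ADORA2B, an adenosine receptor, by 0.468 ± 0.056, each with all 3 endotoxin arrays above the vehicle arrays. GPR146, which had the largest fall of all named genes, was at 5.69, 5.80 and 5.93 with endotoxin, against 7.35 and 7.24, 6.81 and 6.82, and 7.37 and 7.16 with vehicle at 1, 2 and 8 hps (-1.17 ± 0.15, q = 0.00107). P2RY5 (LPAR6, a receptor for lysophosphatidic acid) was at 7.89, 7.76 and 7.70 with endotoxin and 8.46 to 8.73 with vehicle, and its second probe set gave -0.491. EDNRB, an endothelin receptor, fell by 0.433 ± 0.055, with -0.545 for its second probe set. GRK4, a receptor kinase, fell by 0.332 ± 0.057, and RGS4, which shortens G-protein signals, by 0.308 ± 0.071, but against vehicle 8 hps alone they were only 0.108 and 0.039 lower. RGS18, of the same family as RGS4, was called higher (0.412 ± 0.081), with 7.82 to 7.87 under endotoxin inside the vehicle range of 6.81 to 8.04. Against vehicle 8 hps alone its difference was -0.145.

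**Figure D2:**
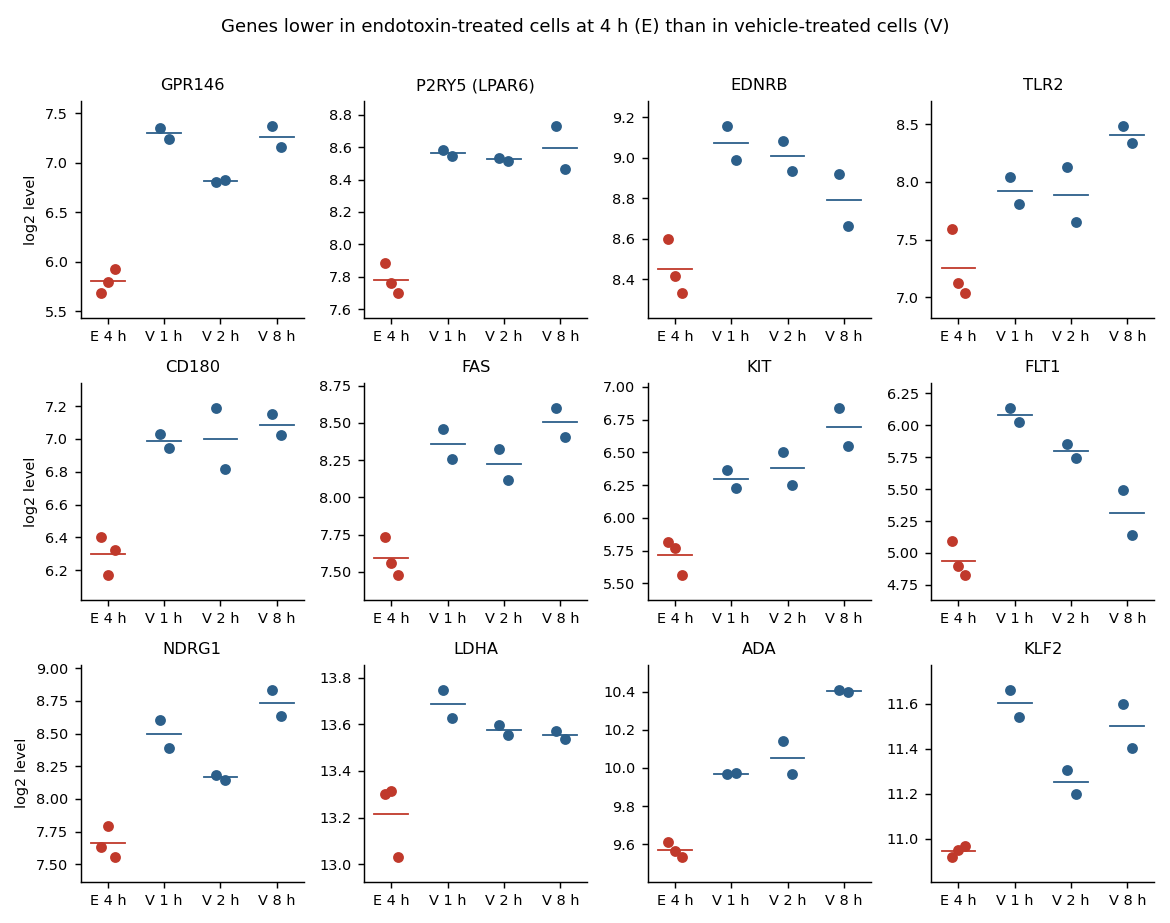
RMA log2 levels of 12 genes called lower, drawn as in the plot of rises: endotoxin 4 hps (E 4 h, red, 3 arrays), then vehicle at 1, 2 and 8 hps (V, blue, 2 arrays each), with lines at group means. FLT1 lies at 6.14 and 6.03 in vehicle 1 hps and at 5.49 and 5.14 in vehicle 8 hps, and in every panel the 3 endotoxin arrays lie below all 6 vehicle arrays.

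Metabolic and growth factor genes were among the falls. LDHA, which turns pyruvate into lactate, was at 13.30, 13.31 and 13.03 with endotoxin and 13.54 to 13.75 with vehicle, and was the 1 called gene of 28 for glycolysis and hexose uptake (-0.369 ± 0.068, q = 0.0154). In that group 19 of 28 had a difference below 0, against 6804 of all 13782 genes. NDRG1, a stress-responsive gene, was at 7.63, 7.79 and 7.56 with endotoxin, against 8.61 and 8.39, 8.18 and 8.14, and 8.83 and 8.63 with vehicle at 1, 2 and 8 hps (-0.748 ± 0.109, q = 0.00305), and its other 2 probe sets gave -0.793 and -0.388. FLT1, a receptor for vascular endothelial growth factor, was at 5.09, 4.89 and 4.83 with endotoxin, against 6.14 and 6.03, 5.86 and 5.75, and 5.49 and 5.14 with vehicle (-0.702 ± 0.09, q = 0.00107), and its other 2 probe sets gave -0.258 and 0.038. Its level in vehicle-treated cells differed by time (q = 0.00947, F test), and its fall was 1.05 against 1 hps and 0.284 against 8 hps. With vehicle at 4 hps as reference, FLT1 (0.131) and NDRG1 (-0.397) were not called and LDHA was called lower (-0.297, q = 0.0342, limma).

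Enzymes of adenosine were among the genes picked after their values were seen. NT5E (CD73), the surface enzyme that makes adenosine, was at 8.26, 8.30 and 8.15 with endotoxin and 7.60 to 8.03 with vehicle (0.489 ± 0.066, q = 0.00159), and its second probe set gave 0.329. ADA, which breaks adenosine down, was at 9.61, 9.56 and 9.54 with endotoxin and 9.97 to 10.41 with vehicle (-0.454 ± 0.092, q = 0.0235), but its second probe set gave -0.225 and 5 of 9 omissions of an array ended the call.

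Of 44 phagocyte effector genes 1 was called higher (2.27%) and 3 lower (6.82%), against 0.936% and 1.02% of all genes, and the median difference was -0.0163. GCH1, the first enzyme of the cofactor that nitric oxide synthase needs, rose by 0.426 ± 0.083 (q = 0.0195), while NOS2 (0.17) was not called. ALOX5AP, the partner protein of 5-lipoxygenase, fell by 0.264 ± 0.062, and LGALS3 (galectin-3) by 0.402 ± 0.093, with 0.015 for the second LGALS3 probe set. The counts were 0 higher and 1 lower without the endotoxin array of replication 2.

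The called matrix enzymes were higher. MMP23B was at 8.48, 8.32 and 8.15 with endotoxin and 7.31 to 7.78 with vehicle (0.818 ± 0.065, q = 1.79e-05), and its other 2 probe sets gave 0.172 and 0.241. MMP27 rose by 0.512 ± 0.112, and the protease inhibitor SERPINE2 fell by 0.329 ± 0.068. MMP1 rose by 0.322 ± 0.07 (second probe set 0.058), but it was dim and its groups overlapped, at 4.58 to 4.94 with endotoxin and 4.25 to 4.88 with vehicle. The call of MMP1 was lost in 7 of 9 omissions of an array, that of MMP27 in 6 and that of SERPINE2 in 7. These 4 were the called genes of 33 (9.09% higher and 3.03% lower, against 0.936% and 1.02% of all genes). Without the endotoxin array of replication 2 the counts were 1 higher and none lower.

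Genes on the integrin, tetraspanin and galectin list were lower where they were called. Of 40 integrin, tetraspanin and galectin genes none was called higher and 3 were called lower (7.5%), against 1.02% of all genes. A difference below 0 was found in 31 of the 40, against 6804 of all 13782 genes, and the median was -0.078. EMP1, a small membrane protein of cell junctions, was at 6.35, 6.04 and 6.06 with endotoxin and 6.48 to 7.31 with vehicle (-0.63 ± 0.117, q = 0.0154), while its other probe set gave 0.019. ITGB5, the beta chain of a vitronectin receptor, was at 9.68, 9.77 and 9.69 with endotoxin, against 10.23 and 9.99, 9.87 and 9.75, and 10.64 and 10.41 with vehicle (-0.416 ± 0.077). It fell by 0.791 against 8 hps and by 0.079 against 2 hps. LGALS3, described with the phagocyte effectors, was the other called member. Against vehicle at 4 hps EMP1 was called lower (-0.69, q = 0.0143, limma), and ITGB5 (-0.106) and LGALS3 (-0.298) were not called. PECAM1, an adhesion molecule of leukocytes and endothelium from the marker list and not of these 40, fell by 0.407 ± 0.088. Its other 4 probe sets ran from -0.588 to 0.026. Counts among the 40 genes fell to 1 without the endotoxin array of replication 2 and to 0 without that of replication 1. Some single genes were picked because they were lower, and say nothing of the cytoskeleton as a whole. VIM, the intermediate filament vimentin, was at 11.42, 11.39 and 11.35 with endotoxin and 11.65 to 11.84 with vehicle (-0.358 ± 0.056, q = 0.00495). LSP1, a leukocyte actin-binding protein, fell by 0.561 ± 0.075, SCIN by 0.411 ± 0.086, PLS3 by 0.393 ± 0.074 and SVIL by 0.351 ± 0.064, all 4 being actin-binding, and RHOB, a small GTPase, by 0.345 ± 0.065. Each of these had its endotoxin arrays below all 6 vehicle arrays, and VIM and LSP1 were called with each array left out. Set against vehicle at 4 hps, LSP1 (-0.604), SCIN (-0.495) and PLS3 (-0.407) were called lower by limma. VIM (-0.117), SVIL (-0.233) and RHOB (-0.013) were not called there.

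The other large rises and falls were of scattered function. CMBL, a hydrolase, was at 6.81, 6.57 and 6.61 with endotoxin, against 6.20 and 6.01, 5.65 and 5.25, and 5.60 and 4.88 with vehicle, so its difference was 0.71 against 1 hps and 1.58 against 8 hps (1.22 ± 0.162, q = 0.00151). AVD (LOC396260), the biotin-binding protein avidin, averaged 7.32 ± 0.098 with endotoxin (SD, n = 3) and 6.32 ± 0.16 with vehicle (SD, n = 6). HPS5, which serves the making of lysosome-related organelles, was at 7.36, 7.43 and 7.10, against 6.29 to 6.68. For AVD the endotoxin-minus-vehicle difference at the same time was 0.292, 0.374 and 1.55 at 1, 2 and 8 hps, and for HPS5 it was 0.194, 0.235 and 0.972. Among the falls, NPL, a sialic acid lyase, was at 5.93, 6.25 and 6.00 with endotoxin and 6.66 to 7.39 with vehicle (-0.9 ± 0.181), CYP3A80, a cytochrome P450, fell by 0.745 ± 0.13, UBASH3B, which dampens tyrosine kinase signals, by 0.632 ± 0.098 and TPD52 by 0.621 ± 0.104. Set against vehicle at 4 hps, NPL (-0.43), CYP3A80 (-0.237), UBASH3B (-0.171) and TPD52 (0.013) were not called. KIT, the stem cell factor receptor, which was singled out after its values were seen, had 5.82, 5.77 and 5.57 with endotoxin and 6.23 to 6.84 with vehicle (-0.582 ± 0.079, q = 0.0017). LOC416418, LOC428323 and LOC427182, also among the 15 largest falls, were lower by 0.704, 0.649 and 0.622 and have no role given here. Of solute carriers 3 of 239 rose and 3 fell, shares near those of all genes. SLC23A2, a vitamin C transporter, rose by 0.642 ± 0.125, SLC25A25 by 0.301 ± 0.068 and C20orf59 (now SLC17A9, a nucleotide transporter) by 0.333 ± 0.059. SLC6A4, the serotonin transporter, fell by 0.38 ± 0.069, SLC10A4 by 0.311 ± 0.071 and SLC38A2, an amino acid transporter, by 0.305 ± 0.066. With vehicle at 4 hps as reference, SLC38A2 was called lower (-0.38, q = 0.0178, limma), and SLC6A4 (0.247) and SLC10A4 (-0.083) were not called. No carrier was called in either direction without the endotoxin array of replication 2.

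The larger groups of housekeeping function held few called genes, where 0.936% of all genes were higher and 1.02% lower. Of 116 proteasome and ubiquitin genes 1 rose, UBE2J1 (0.262 ± 0.058), and 2 fell, UBE2F (-0.237 ± 0.054), an enzyme that conjugates NEDD8, and C6orf86 (now PSMG4, -0.269 ± 0.053), a proteasome assembly factor. Of 183 vesicle traffic genes 2 fell, both of the exocyst, EXOC4 by 0.229 ± 0.053 and EXOC8 by 0.282 ± 0.059. Among 114 chromatin genes 3 were called higher (2.63%) and 1 lower (0.877%): JMJD6 (0.405 ± 0.078), PRMT3 (0.328 ± 0.059) and BRD9 (0.236 ± 0.052) rose and JARID2, a partner of the Polycomb complex, fell (-0.455 ± 0.091). Set against vehicle at 4 hps, PRMT3 was called higher (0.388, q = 0.0163, limma), and JMJD6 (0.062), BRD9 (0.12) and JARID2 (0.073) were not called. The calls of EXOC4 and UBE2F ended on omission of any of the 9 arrays, and those of EXOC8, UBE2J1 and BRD9 on 8 of 9, and their further probe sets gave -0.177 to 0.07 for EXOC4, -0.062 to 0.008 for UBE2F, -0.103 for EXOC8, 0.384 for UBE2J1 and 0.002 for BRD9. Of the ubiquitin enzymes that the study names, UBE2Q2 (0.14), UBE3C (0.035), UBE2A (0.025) and UBE4B (0.012) were not called. Set against vehicle at 4 hps, the study's reference, UBE2Q2 was called higher (0.345, q = 0.0268, limma). UBE3C, UBE2A, UBE4B and UBE2J1 were not called there on the probe sets given. Of 84 mitotic genes BUB1, a spindle checkpoint kinase, rose by 0.303 ± 0.055 and CDK8 fell by 0.335 ± 0.07. For 13 of the 84 the endotoxin arrays lay above all vehicle arrays of 1, 2 and 8 hps, against 3.49% of all genes. Of 101 genes of DNA replication and repair NBN rose by 0.354 ± 0.067, but it was only 0.046 above vehicle 8 hps. Set against vehicle at 4 hps, BUB1 (0.039), CDK8 (-0.275) and NBN (0.174) were not called. BUB1, CDK8 and NBN were not called without the endotoxin array of replication 1 or without that of replication 2. None of 65 ribosomal protein, 127 respiratory chain, 67 lysosome, 34 apoptosis, 68 endoplasmic reticulum entry, 144 splicing or 82 translation genes was called in limma by its brightest probe set. In that order 2, 11, 11, 3, 10, 30 and 11 of them had an unadjusted p under 0.05. Over all genes 15.5% passed that level. By any probe set, 5 splicing genes were called higher and 3 lower, and 1 ribosomal protein gene was called lower. Of all 13782 genes, 168 were called higher and 175 lower that way.

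**Figure D3:**
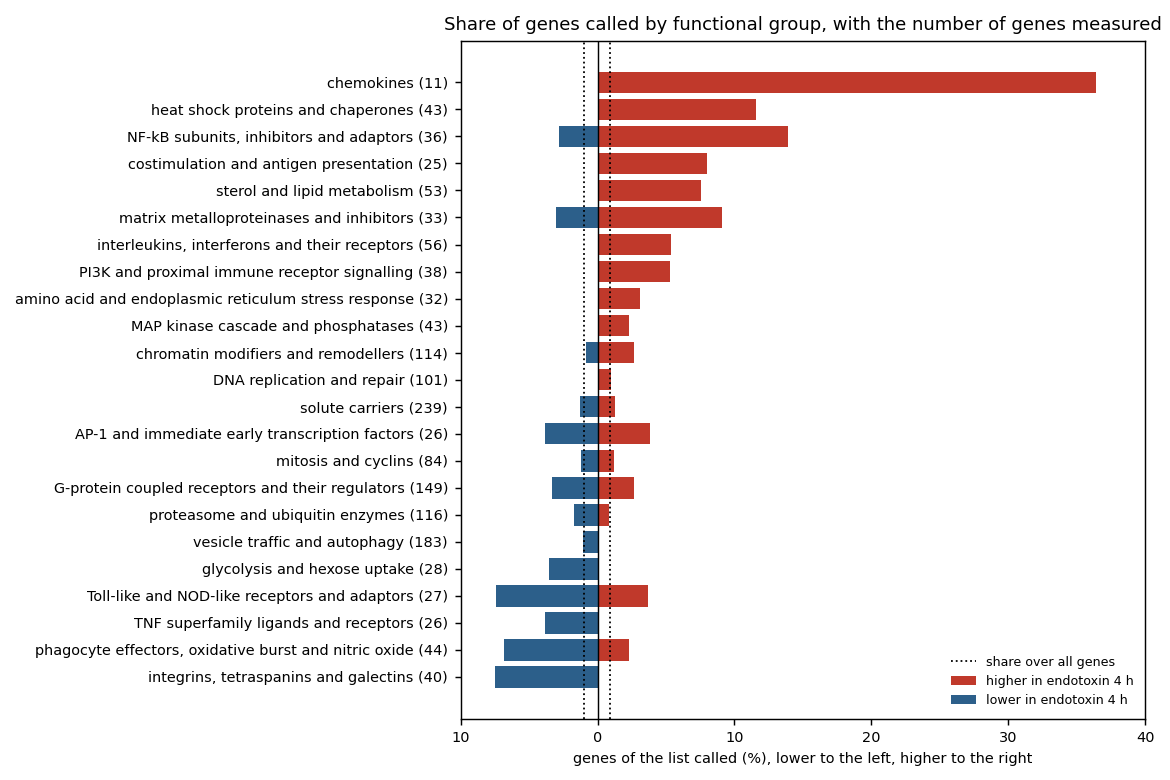
Percent of the genes of each functional group called higher (red, to the right of 0) or lower (blue, to the left) in endotoxin 4 hps against the vehicle times, for the 23 groups with a called gene, with the number of genes measured in brackets. Dotted lines mark the shares over all genes, 0.936% higher and 1.02% lower, and chemokines (36.4% higher) lie farthest from them.

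Heat shock genes were among the rises, and several of them differed by time in vehicle-treated cells. Of 43 heat shock and chaperone genes 5 were called higher and none lower. HSP70 (current symbol HSPA2 by its accession), the stress-induced chaperone, was at 10.84, 10.80 and 10.78 with endotoxin, against 10.05 and 9.76 at 1 hps, 10.01 and 9.83 at 2 hps, and 10.59 and 10.50 at 8 hps with vehicle (0.765 ± 0.08, q = 0.000237). DNAJA1 (RCJMB04_15h2 in the array's annotation), a cochaperone of the same family of machines, was at 9.95, 10.07 and 10.01, against 8.43 and 8.66, 9.03 and 8.99, and 9.25 and 9.32 (1.05 ± 0.101, q = 0.000114), and its brighter probe set gave 0.755. Both genes stood above every vehicle array of 1, 2 and 8 hps, with the smallest gap to 8 hps. BAG3, which couples HSP70 to autophagy, rose by 0.589 ± 0.064 (second probe set 0.558), and CHORDC1, a cochaperone of HSP90, by 0.54 ± 0.064. CHORDC1 at 9.01 to 9.05 with endotoxin was far above vehicle at 1 hps (7.82 and 8.02) and level with vehicle at 8 hps (9.02 and 9.08). HSPA8, the constitutive form, rose by 0.257 ± 0.055, a call that 7 of 9 omissions ended. DNAJA4 and HSP90AA1, singled out after their values were seen, gave 0.375 ± 0.059 and 0.781 ± 0.152, but the brighter HSP90AA1 probe set gave 0.243 and was not called. The F test over the vehicle times called HSP70, DNAJA1, BAG3 and CHORDC1 (q = 0.0066, 0.0215, 0.0122 and 0.000143), and against vehicle 8 hps alone DNAJA1 was called on the probe set given (0.712, q = 0.0145), while by their brightest probe sets limma called none of the 43 genes, DNAJA1 included (0.242), 6 of them having an unadjusted p under 0.05.

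At the same time, HSP70, DNAJA1, BAG3, CHORDC1, HSPA8 and DNAJA4 differed between endotoxin and vehicle by -0.226 to 0.255, and none of these differences was called, but HSP90AA1 was called higher at 4 hps (0.882, q = 0.0364). For HSP70 the endotoxin-minus-vehicle difference was -0.094, -0.153, 0.081 and 0.023 at 1, 2, 4 and 8 hps, and for DNAJA1 it was -0.069, -0.226, 0.155 and 0.255. For NFKBIA, by contrast, it was 1.23, 1.44, 1.12 and 1.14. The 2 vehicle arrays of 4 hps, which are outside the comparison, had HSP70 at 10.77 and 10.84 and DNAJA1 at 9.80 and 9.88, close to the endotoxin arrays of that time. Those 2 arrays also stood apart from the other vehicle arrays in the signal of the 3' end over the 5' end of beta-actin, at 0.346 and 0.218 on the log2 scale, against 0.0113, -0.115 and -0.146 on the endotoxin 4 hps arrays and -0.00184 to 0.114 on the other 6 vehicle arrays. The part of that signal in the values at 4 hps was not tested.

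**Figure D4:**
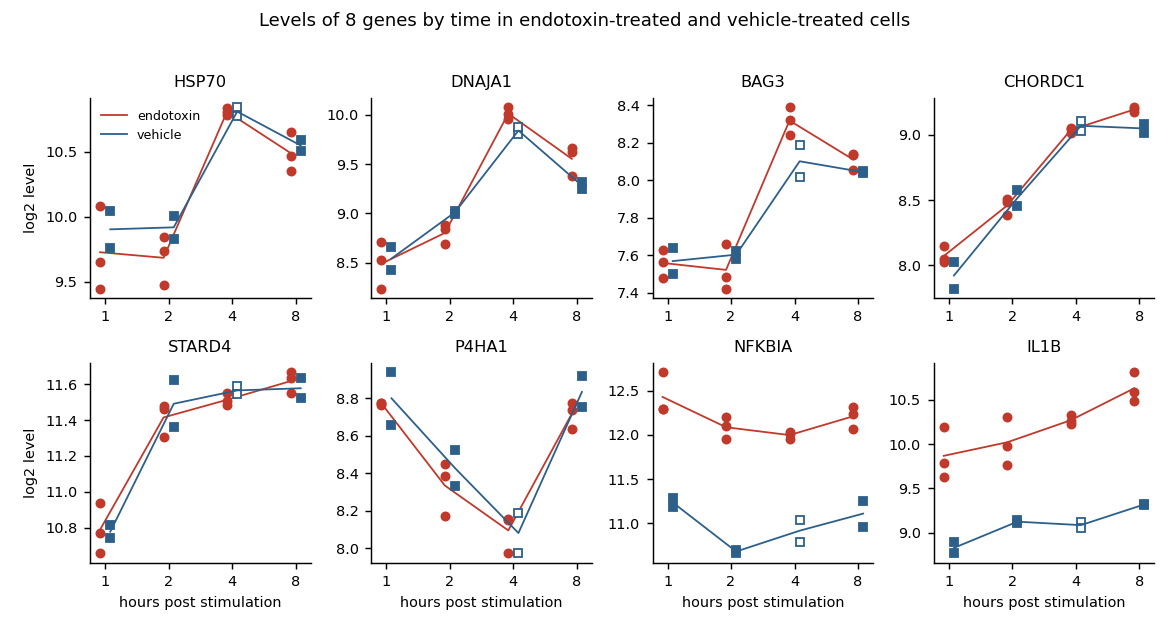
RMA log2 levels of 8 genes at 1, 2, 4 and 8 hps, with a point for each array and lines through the means: endotoxin (red circles, 3 arrays a time) and vehicle (blue squares, 2 arrays a time, hollow at 4 hps, where they are outside the comparison). The 2 treatments run together for HSP70, DNAJA1, CHORDC1, STARD4 and P4HA1, and apart at every time for NFKBIA and IL1B.

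Some sterol genes also differed by time in vehicle-treated cells. Of 53 sterol and lipid genes 4 were called higher, and the F test over the vehicle times called 11 of the 53, against 2.79% of all genes. CH25H, which makes the immune oxysterol 25-hydroxycholesterol, was at 7.32, 7.49 and 7.24 with endotoxin, against 5.89 and 6.29, 6.39 and 5.89, and 6.98 and 6.52 with vehicle (1.13 ± 0.15, 2.19-fold, q = 0.00151). LIPG, a secreted lipase, rose by 0.622 ± 0.116. Both had higher means with endotoxin than with vehicle at each time, by 0.80 to 1.31 for CH25H and by 0.327 to 1.01 for LIPG. CH25H was called at 1, 2 and 4 hps and not at 8 hps (q = 0.0701, limma). LIPG was called at 2 and 8 hps only, and at 4 hps its difference was 0.369 (q = 0.0861, limma). NSDHL, an enzyme of cholesterol synthesis, was at 10.90 to 10.99 with endotoxin, against 10.52 and 10.44 at 1 hps, 10.52 and 10.33 at 2 hps and 10.95 and 10.99 at 8 hps with vehicle (0.373 ± 0.072). STARD4, a carrier of cholesterol inside cells, was at 11.48 to 11.55, against 10.81 and 10.74 at 1 hps and 11.36 to 11.63 at 2 and 8 hps (0.272 ± 0.062). For NSDHL and STARD4 the difference from vehicle at the same time lay between -0.139 and 0.08 at all 4 times. HMGCS1 and FDFT1, earlier enzymes of the same pathway, were not called (0.17 and 0.212), with vehicle means at 1, 2 and 8 hps of 9.93, 10.72 and 10.78 for HMGCS1 and 10.73, 11.26 and 11.25 for FDFT1. Without the endotoxin array of replication 2 the count of called members was 1 of 53, and against vehicle 8 hps alone it was 0, with 13 at an unadjusted p under 0.05. UBE2J1 had a like pattern, with 9.82 to 9.96 under endotoxin and 9.27 to 10.01 under vehicle. DNAJB9, a chaperone of the endoplasmic reticulum, was the 1 called gene of 32 in the amino acid and reticulum stress group (0.318 ± 0.069). It was 0.551 above vehicle at 1 hps and 0.205 above it at 8 hps. Its endotoxin arrays lay above the vehicle arrays of 1, 2 and 8 hps, and the F test over those times did not call it (q = 0.0634).

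**Figure D5:**
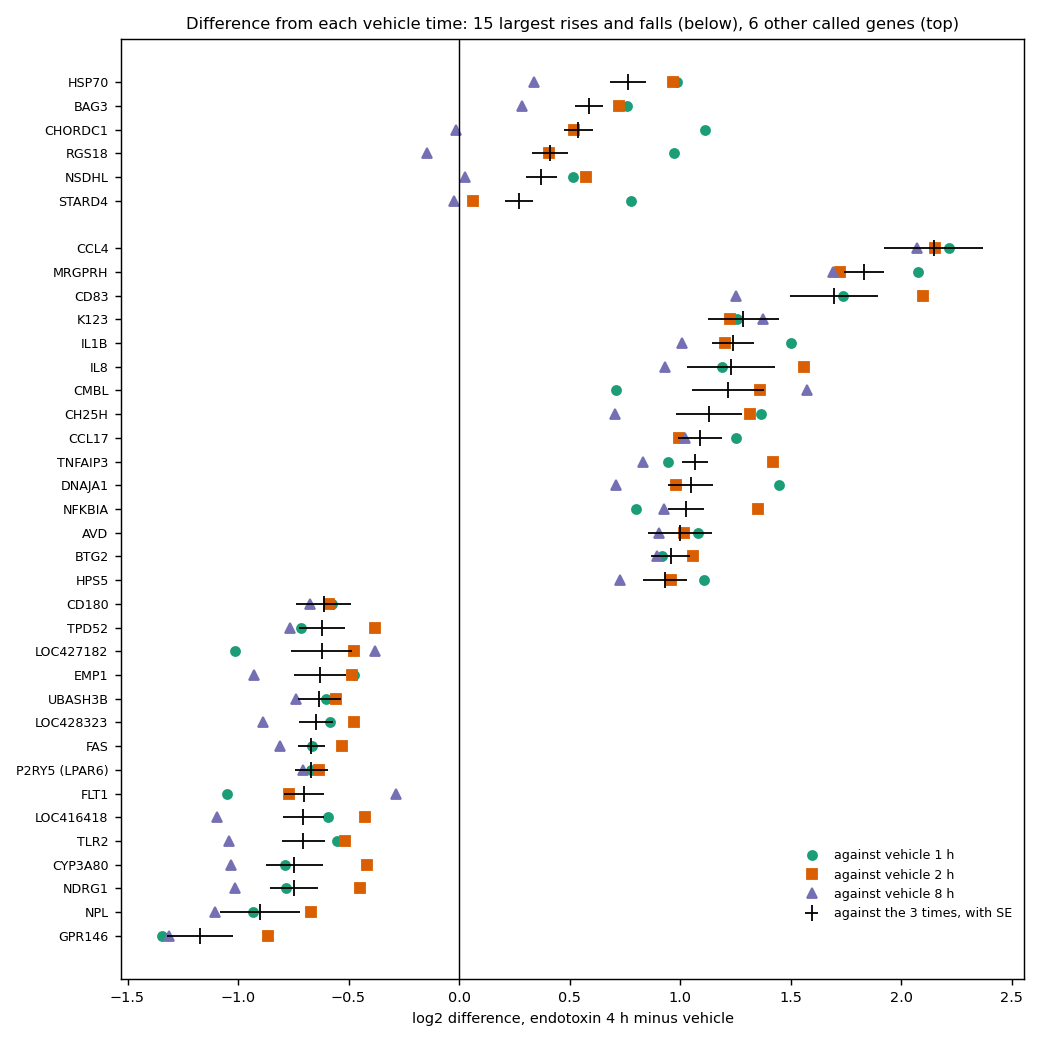
Log2 difference of endotoxin 4 hps from vehicle at 1 hps (circles), 2 hps (squares) and 8 hps (triangles) and from the 3 times together (black ticks, with a bar of 1 SE each way), for the 15 largest rises and falls and, at the top, 6 other called genes. CCL4 gave 2.22, 2.15 and 2.07 against the 3 times, while CHORDC1 gave 1.11, 0.519 and -0.014.

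Across all probe sets, the 519 calls were read against the change over time in vehicle-treated cells. The F test over vehicle 1, 2 and 8 hps called 861 probe sets (2.24%), and 108 of the 519 (20.8%) were among them, a count that shares its vehicle arrays with the comparison. Of the 519, 502 had the same direction against each vehicle time, and 41 higher and 8 lower probe sets passed the threshold against each of the 3 times alone. The genes named here that did so were 24, among them CCL4, MRGPRH, CD83, K123, IL1B, CCL17, TNFAIP3, NFKBIA, BTG2, PIK3R5, TNIP2, TRAF3 and IL1R2 of the rises and KIT, LSP1, FAS and P2RY5 of the falls. Against a single time the counts were 510 higher (1.33%) and 264 lower (0.687%) for 1 hps, 110 (0.286%) and 45 (0.117%) for 2 hps, and 158 (0.411%) and 293 (0.762%) for 8 hps, so that rises outnumbered falls against 1 and 2 hps and falls outnumbered rises against 8 hps. Of the 29 genes that the study names, 16 were called higher and TLR2 was called lower. Many of the 29 were reported by the study as differentially expressed on these same arrays, so the count is not independent support. By their brightest probe sets, 0.936% of all genes were called higher and 1.02% lower. The study set endotoxin against vehicle of the same time, which is a different reference.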

How the data were processed

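The authors deposited 1 expression level per probe set and array on the log2 scale, made by RMA (background correction, quantile normalization and median polish) according to the study's methods, and these values were used as given. A second deposited table holds the authors' own fold changes and q values, which were not used, and its annotation columns gave the gene names: of 38439 probe sets tested, 25798 had 1 gene name, 668 several and 11973 none. Of the 25798, 13303 were matched to current RefSeq symbols by accession, 8408 by symbol and 509 by synonym (GRCg7b table, names only). The array's names were kept, and where not said in the text the accessions of MMP23B, LSP1 and CYP3A80 now carry other symbols. Sequences of probes or promoters were not used here. The number of arrays limits the precision.

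With limma 3.58.1 under R 4.3.3, 18 arrays were fitted as 7 groups, each a treatment at 1 time, with replication as a fixed block, leaving out the 2 vehicle arrays of 4 hps and 96 control probe sets (9 residual and 5.12 prior degrees of freedom). The contrast was endotoxin 4 hps minus the mean of vehicle 1, 2 and 8 hps, and an F test compared the vehicle times. P values became q values by the histogram method of the study's methods with 20 bins, and a q under 0.05 was a call. Endotoxin against vehicle at the same time came from the same fit, and at 4 hps from a fit of all 20 arrays. Replications were set up on different days according to the methods, so the replicate number pairs arrays. The difference of replication 2 from 1 correlated over probe sets between endotoxin 4 hps and the vehicle mean at 0.217 (0.308, -0.065 and 0.148 for vehicle 1, 2 and 8 hps). P values rest on the spread left among the 18 arrays after the group and replication terms, moderated over probe sets.

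Counts of genes in lists use the brightest probe set of each gene over the 9 arrays, and single genes may be given by another, more changed probe set. Genes named are the 15 largest rises and 15 largest falls among called genes whose groups did not overlap, up to 6 called members a direction of each of 37 gene lists (those with the lowest q), and 29 genes the study names, with others named as chosen after their values were seen. A called gene that this rule gives is not reported here. The comparison, the members and the lists were chosen with earlier results of these data known, and 2 further lists were written after the values were seen. The fit was tested on simulated data. Alternatives were no replication term, a random replication term, other sets of arrays, a single vehicle time, Benjamini-Hochberg adjustment, trend and robust options, cyclic loess, centring on ribosomal proteins, the brighter probe sets, control probe sets kept, and each replication or array left out. Added after seeing the data were the counts against each vehicle time and the list counts under these alternatives. Figures were drawn with matplotlib.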

Additional observations from a re-analysis of the deposited data

Results flagged for a closer look

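Many of the 117 genes named were picked through a comparison that uses the vehicle arrays of 1, 2 and 8 hps. By the limma F test over these times, 24 of the 117 differences depended on the vehicle time, against 2.24% of all probe sets. Among rises that were larger against the early vehicle arrays these were CHORDC1 (q = 0.000143), RGS18 (0.000817), STARD4 (0.000817), CIRBP (0.00129), UBE2J1 (0.00188), HSP70 (0.0066), NBN (0.0112), NSDHL (0.0117), BAG3 (0.0122), DNAJA1 (RCJMB04_15h2, 0.0215), HSP90AA1 (0.0345) and DNAJA4 (0.0351). CIRBP, chosen after its values were seen, is named so by the array and assigned to RBM3 by its accession, both cold-inducible RNA-binding proteins. It was at 10.41, 10.37 and 10.29 with endotoxin 4 hps, against 8.76 and 8.59, 9.64 and 9.83, and 10.36 and 10.28 with vehicle at 1, 2 and 8 hps. It was called higher (0.672 ± 0.129, q = 0.0182), its other 2 probe sets gave -0.085 and -0.05, and its call was lost in 3 of 9 omissions of an array.

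TNFAIP3 (q = 0.00284), NFKBIA (0.0236) and JUN (0.0223) differed most against vehicle 2 hps, and MMP1 (0.0294) against 8 hps. Among the lower genes, PFKFB4 (q = 0.00359), PER2 (0.00444), FLT1 (0.00947), GRK4 (0.0242) and RGS4 (0.0397) differed more against 1 hps than against 8 hps. ITGB5 (0.00608) and LOC416418 (0.0215) differed most against 8 hps, and RHOB (0.0192) against 1 hps.

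CSF3 (LOC396216) had 1 vehicle array apart from the other 5: vehicle 1 hps of replication 1 at 4.01, with the next at 3.65, a gap of 0.681 of the whole range. The same array stood apart for NLRC5 (RCJMB04_18i2) at 6.52, with the next at 6.10 (0.712), and for UBE2A at 11.22, with the next at 11.17 (0.627). Of 117 genes tested for an array apart, these 3 were flagged. Chance alone gives such a gap in about 1 of 20 groups of like samples. The 6 arrays here are of 3 times, so that rate need not hold for them.

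The 2 vehicle arrays of 4 hps, outside the comparison, lay above all 6 other vehicle arrays with a q under 0.05 for DNAJA1 (RCJMB04_15h2, 0.893 higher), HSP70 (0.684), NSDHL (0.423), DNAJB9 (0.354), MRGPRH (0.348), JMJD6 (0.343) and BUB1 (0.264). The flag looked in that direction only. Other named genes lay below all 6 with a q under 0.05. Among these were NLRC5 (-0.691), TPD52 (-0.633), SLC6A4 (-0.627), P4HA1 (-0.607), ERO1L (-0.552) and JARID2 (-0.527).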

How the results depend on the processing

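Of the 105 called genes named, 33 stayed called under the 11 alternatives that change the model, the arrays, the adjustment or the normalization, and none of the 105 changed sign under them. With the replicate block dropped, so that replications set up on different days were no longer paired, 155 probe sets were called higher and 188 lower, the vehicle times test called 301, and 17 higher and 0 lower passed against each vehicle time. Only the 9 arrays gave 53 higher and 46 lower, and without the endotoxin 1 and 2 hps arrays of replication 3 the counts were 161 and 153. Trend and robust options gave 520 and 608, and the brighter probe sets alone, where 4 of the 105 genes were not tested, 595 and 611. Vehicle 1 hps alone gave 510 higher, 2 hps alone 110 higher and 45 lower, and 8 hps alone 158 higher. Against 8 hps alone CIRBP (-0.071), CHORDC1 (-0.0138), RGS18 (-0.145), STARD4 (-0.0243) and UBE2J1 (-0.0782) changed sign. Benjamini-Hochberg adjustment left 5 lower probe sets called against each time. With 1 replication left out the counts were 7 to 117 higher and 0 to 105 lower, 0 to 413 for the vehicle times, and 0 to 19 higher and 0 to 6 lower against each time. With 1 array left out they were 89 to 204 higher and 47 to 195 lower, the lowest without the endotoxin array of replication 2, and the count of rises or of falls moved by over 1.5 times for each array but vehicle 1 hps of replication 1 and endotoxin of replication 3. The cause of these changes was not tested. The other choices moved none of these counts over all probe sets by over 1.5 times, but with replication as a random block IRAK2 was no longer called, so that 0 Toll-like and NOD-like receptor genes were higher. No difference smaller than 0.227 was called with these 3 and 6 arrays.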

Other observations

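Genes of the hypoxia response, a list written after values were seen and given no test of its own, were lower where they were called. Of 40 genes measured, 5 were called lower (12.5%) and none higher by their brightest probe set, against 1.02% of all genes called lower. By any probe set 8 were called lower, against 175 of all 13782 genes. A difference below 0 was found in 29 of the 40, against 6804 of the 13782. The F test over the vehicle times called 9 of the 40 (22.5%), against 2.79% of all genes. Over the 40 the median difference was -0.0672, -0.0204 and -0.194 against vehicle at 1, 2 and 8 hps. P4HA1, which hydroxylates collagen, was at 8.15, 8.16 and 7.97 with endotoxin 4 hps, against 8.94 and 8.66, 8.33 and 8.52, and 8.92 and 8.75 with vehicle at 1, 2 and 8 hps (-0.573 ± 0.082, q = 0.00259, limma), and its brighter probe set gave -0.229. ERO1L (now ERO1A), the oxidase of disulfide formation, fell by 0.553 ± 0.082, BNIP3L and BNIP3, which tag mitochondria for removal, by 0.514 ± 0.079 and 0.361 ± 0.054, while PFKFB4, a regulator of glycolysis, differed by -0.496 ± 0.066 on 1 probe set and by -0.007 to 0.155 on its other 4. P4HA1, ERO1L, BNIP3 and PFKFB4 had all endotoxin 4 hps arrays below all vehicle arrays of 1, 2 and 8 hps. Against vehicle of the same time the differences at 1, 2, 4 and 8 hps were -0.007, -0.073, 0.034 and -0.098 for P4HA1 and 0.034, 0.06, -0.001 and 0.056 for ERO1L, and the 2 vehicle arrays of 4 hps were at 8.19 and 7.97 for P4HA1. For BNIP3 they were -0.089, -0.09, -0.299 and -0.269. BNIP3L was not called without the endotoxin array of replication 2 (q = 0.0564).

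Of 19 circadian clock genes, also listed after values were seen, 3 were called lower (15.8%) and none higher, against 1.02% of all genes called lower. An unadjusted p under 0.05 in limma was found for 5 of the 19, against 15.5% of all genes. PER2, a repressor of the clock, was at 7.25, 6.86 and 6.85 with endotoxin 4 hps, against 8.42 and 8.06, 7.64 and 7.43, and 7.39 and 7.19 with vehicle at 1, 2 and 8 hps (-0.598 ± 0.101, q = 0.00876), and its other 4 probe sets gave -0.599 to 0.136. CRY1, its partner, fell by 0.366 ± 0.073 (second probe set -0.083), and CCRN4L (now NOCT), a rhythmic RNA deadenylase relative, by 0.435 ± 0.076. At the same time as its vehicle, PER2 differed by 0.105, 0.205, 0.012 and -0.117 at 1, 2, 4 and 8 hps, and CRY1 by -0.016, 0.036, -0.372 and 0.015. Without the endotoxin array of replication 2, limma called none of the 3. SUCNR1, the receptor for succinate, is not a clock gene and was chosen after its values were seen. It was at 10.28, 10.37 and 10.23 with endotoxin and 10.45 to 10.94 with vehicle (-0.344 ± 0.075, q = 0.0358), a call that 8 of 9 omissions ended.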
